A study of Drosophila melanogaster with 36 samples.

Results

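The short and tailed Bomanins are 9 small secreted peptides of Drosophila melanogaster, 6 short (BomS1 to BomS6) and 3 tailed (BomT1, BomT2 and BomT3). They were chosen by gene symbol, with earlier results of these data known, and are 9 of the 17552 genes in the deposited count table. RNA was sequenced from heads and abdomens of standard females of the IV base population, each library being a pool of 20 females frozen at 4 days of age. For each tissue, 3 libraries came from females mated to males of polygamous lines (P1, P2 and P3), 3 from females mated to males of monogamous lines (M1, M2 and M3) and 3 from virgins. Mating took place at 3 days of age and the mated females were frozen 24 h later. The 6 lines of males had been kept at a census size of 200 for 182 generations of experimental evolution, followed by 1 generation in a common environment, so the replicate of a male regime was the evolved population. The labels do not state that the 3 pools of virgins were raised apart, so the spread of these pools may be technical. A p-value against them rests on a spread estimated over the virgin and mated libraries together.

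Bomanins are effectors of the humoral immune response. The fat body, the fly's counterpart of liver and adipose tissue, makes them when the Toll pathway activates the NF-kappaB factors Dif and dorsal, and releases them into the haemolymph. A short Bomanin consists of little more than a secretion signal and the Bomanin motif, a tailed Bomanin carries a further stretch after the motif, and the related bicipital Bomanins (BomBc1, BomBc2 and BomBc3) hold a pair of motifs joined by a linker. Flies that lack the main Bomanin cluster are known to be susceptible to fungi and Gram-positive bacteria, and mating is known to alter transcripts of immune peptides in females of this species. BomS1, BomS2 and BomS3 were first described as the immune-induced haemolymph peptides IM1, IM2 and IM3, and separate roles of most other members are not established.

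In the BDGP6 assembly, 8 members lay within 9237 bp of chromosome arm 2R, from 18381393 to 18390629. BomT1 (FBgn0262838, 18381393 to 18381844, minus strand) stood at one end and BomS6 (FBgn0040733, 18390353 to 18390629, minus strand) at the other. Between them, on the plus strand, lay BomS1 (FBgn0034329, 18383949 to 18384378), BomS4 (FBgn0034330, 18384567 to 18384911), BomS2 (FBgn0025583, 18386602 to 18387030), BomS3 (FBgn0040736, 18387895 to 18388734), BomT2 (FBgn0040735, 18388995 to 18389443) and BomS5 (FBgn0040734, 18389959 to 18390242). The span held 10 genes in all, the other two being BomBc1 and BomBc2. BomT3 (FBgn0038930) lay apart, on the minus strand of 3R from 22085374 to 22086397 and 677 bp from BomBc3. Every member was annotated with 2 exonic blocks. The annotated precursors had 39 residues for BomS3, 40 each for BomS5 and BomS6, 45 each for BomS1, BomS2 and BomS4, 63 for BomT1, 76 for BomT2 and 117 for BomT3. BomS4 overlapped BomBc2, on the opposite strand, by 88 bp, so its counts are uncertain in so far as the counting did not separate strands, a setting not given in the sources used here.

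Totals were 41057456 to 56772245 counts in abdomen libraries and 40396031 to 64761633 in head libraries, of which the members took 0.00693% to 0.0182% in abdomens and 0.0856% to 0.124% in heads. All 9 members passed the filter on low counts in both tissues, and BomT1 was the least counted, with 6 to 62 counts in an abdomen library. Levels are counts-per-million scaled by the trimmed mean of M-values (CPM), and levels of different genes are compared as CPM per kilobase of annotated exon. As a check of the tissue labels, 8 germline genes summed to 3495 to 4307 CPM in mated abdomens and 3903 to 4272 CPM in virgin abdomens, and to 51.6 to 62.1 CPM in mated heads and 55.9 to 66.4 CPM in virgin heads. In 3 head libraries, M1, M2 and virgin 1, 18 digestive proteases of the midgut summed to 6193, 13220 and 7901 CPM, against 8.51 to 85.8 CPM in the other head libraries. Some head values for mated against virgin females and for the male regimes are also given without them. The comparison of mating effects between tissues and the correlations over heads include these 3 libraries throughout.

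In abdomens, 8 of the 9 Bomanins were higher in mated than in virgin females 24 h after mating, by 1.77-fold to 3.62-fold, with BomS1 changing most and BomS6 not passing the test. When libraries were instead scaled on muscle and renal tubule genes, 2 members, BomS1 and BomT1, were called higher, BomS6 was called lower, and BomS4 and BomT2 had negative values without passing. That scaling called 3.3% of all genes higher and 69.1% lower. With TMM scaling, 29% of all genes tested were called higher by edgeR's quasi-likelihood test (Benjamini-Hochberg adjusted p below 0.05) and 25.2% lower. The median member differed by 1.26 on the log2 scale and the median of all genes by 0.04. Levels of mated and virgin libraries did not overlap for 6 members, all higher in mated females, as for 26.1% of all genes, and 24.1% of all genes were lower without overlap. The 9 members together summed to 177, 186 and 170 CPM in abdomens of females mated to P1, P2 and P3 males, 153, 142 and 129 CPM after mating to M1, M2 and M3 males, and 86.0, 72.1 and 68.3 CPM in virgins.

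BomS1 had 12.1, 12.9 and 7.53 CPM in abdomens of females mated to P1, P2 and P3 males, 6.01, 7.47 and 8.33 CPM after mating to M1, M2 and M3 males, and 2.91, 2.50 and 1.86 CPM in virgins. Every mated library stood above every virgin library, and P3 lay among the M libraries. The difference between mated and virgin abdomens was 1.86 ± 0.22 on the log2 scale (SE), or 3.62-fold, with an adjusted p of 0.000262 by edgeR.

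BomS2 had 15.5, 16.1 and 12.1 CPM in abdomens of P-mated females, 12.4, 12.01 and 10.6 CPM in M-mated females, and 6.30, 4.36 and 5.002 CPM in virgins. The lowest mated library was well above the highest virgin library, and the log2 difference was 1.31 ± 0.15 (SE, edgeR adjusted p = 0.00023). BomS3 was the most counted member in abdomens, with 68.5, 76.0 and 57.5 CPM in P-mated, 53.4, 47.0 and 42.4 CPM in M-mated and 20.9, 20.1 and 24.0 CPM in virgin females. The 3 groups formed 3 separate ranges, P-mated above M-mated above virgin. Mated females differed from virgins by 1.39 ± 0.12 on the log2 scale (SE, edgeR adjusted p = 6.3e-05).

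BomS4 had 4.02, 3.14 and 4.97 CPM in P-mated abdomens, 3.51, 3.26 and 2.61 CPM in M-mated abdomens and 2.67, 1.54 and 1.47 CPM in virgin abdomens. Virgin 1 stood above the lowest M-mated library, so the groups overlapped, and the log2 difference was 0.90 ± 0.24 (SE, edgeR adjusted p = 0.0104). BomS5 had 3.97, 4.68 and 3.06 CPM in P-mated, 3.81, 3.57 and 4.29 CPM in M-mated and 2.28, 1.598 and 0.921 CPM in virgin females. The M-mated range of BomS5 lay inside the P-mated one, both were above all virgins, and the difference between mated and virgin females was 1.26 ± 0.27 (log2, SE, edgeR adjusted p = 0.0032).

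BomS6 was the member that did not pass the test in abdomens. It had 16.2, 14.2 and 20.7 CPM in P-mated, 17.7, 17.2 and 14.9 CPM in M-mated and 19.7, 13.2 and 11.5 CPM in virgin abdomens. The groups overlapped, with virgin 2 and virgin 3 below every mated library and virgin 1 among the highest. Its log2 difference was 0.18 ± 0.18 (SE, edgeR adjusted p = 0.399). Without virgin 1, the highest virgin library, the difference was 0.44 with an adjusted p of 0.0499, and with scaling on fat body genes or on muscle and tubule genes BomS6 was called lower in mated females, at -0.44 and -0.80.

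BomT1 was rare in abdomens, with 0.950, 0.861 and 0.820 CPM in P-mated, 1.13, 0.760 and 0.394 CPM in M-mated and 0.195, 0.395 and 0.126 CPM in virgin females. M3, with 16 counts, and virgin 2, with 22, stood at the same level, so the groups touched. The log2 difference was 1.62 ± 0.38 (SE, edgeR adjusted p = 0.00576), and on the second sequencing run alone it did not pass (adjusted p = 0.0986). BomT2 had 25.1, 25.1 and 31.5 CPM in P-mated, 25.3, 26.5 and 21.8 CPM in M-mated and 15.9, 16.1 and 11.6 CPM in virgin females. Mated and virgin libraries of BomT2 did not overlap, and its difference of 0.83 ± 0.14 (log2, SE, edgeR adjusted p = 0.000988) was the smallest among the 8 members called.

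BomT3, the member outside the cluster, had 30.4, 33.2 and 31.7 CPM in P-mated, 30.04, 24.1 and 23.6 CPM in M-mated and 15.1, 12.4 and 11.8 CPM in virgin abdomens. The P-mated libraries were close to each other and all above the M-mated ones, and both were above all virgins. Its log2 difference between mated and virgin females was 1.13 ± 0.12 (SE, edgeR adjusted p = 0.000146), within the range of the members of the cluster.

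**Figure D1:**
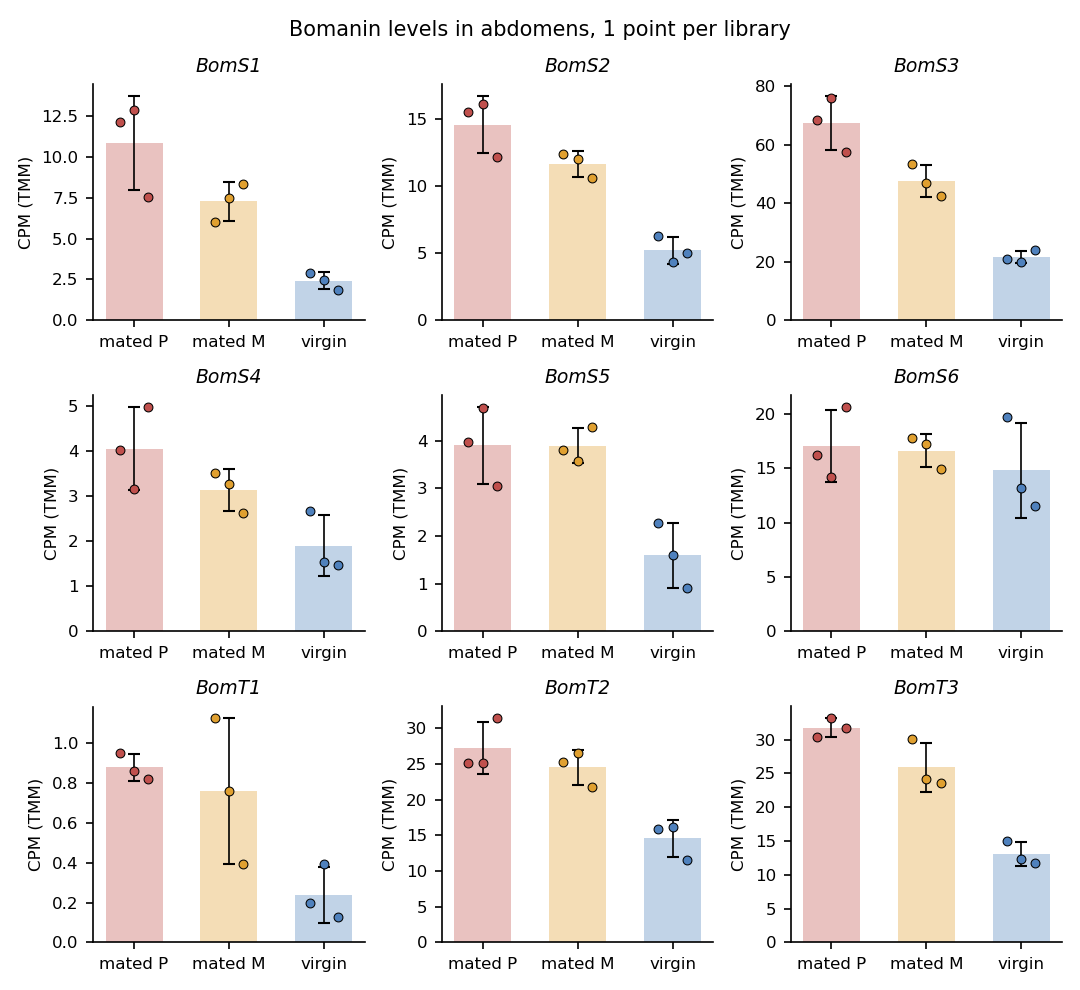
TMM-scaled CPM of the 9 Bomanins in abdomens, with 1 panel per gene, points for libraries, bars for the mean and error bars for the SD of 3 libraries, for females mated to polygamous-line males (mated P), to monogamous-line males (mated M) and virgins. BomS1, BomS2, BomS3, BomS5, BomT2 and BomT3 had no mated library within the virgin range on this scale, and for BomS6 1 virgin library lay within the mated range and 2 below it.

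Each regime set against the same virgins gave similar lists, and both comparisons share the virgin libraries. After mating to P males, 8 members were called higher in abdomens, where 25.9% of all genes were called higher and 21.7% lower. After mating to M males, 7 were called higher, where 24.4% of all genes were called higher and 21% lower. BomS4 was the member that differed in call, with 1.08 ± 0.27 after mating to P males (edgeR adjusted p = 0.00913) and 0.71 ± 0.27 after mating to M males (edgeR adjusted p = 0.0517), while the difference between the regimes was 0.37 ± 0.27 (edgeR adjusted p = 1.00). BomS6 was not called in either, at 0.20 ± 0.20 and 0.17 ± 0.20. BomT1 was called against virgins after mating to M males (1.52 ± 0.42, edgeR adjusted p = 0.0152), but not without M1 (adjusted p = 0.0599), virgin 1 (0.0598) or virgin 3 (0.0552).

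Whether these are changes per cell depends on what is held constant. In bulk tissue, fewer cells of a type and less RNA per cell cannot be told apart. In mated abdomens, the 8 fat body genes examined summed to 1877 to 2447 CPM, against 1010 to 1480 CPM in virgin abdomens, with 6 of 8 called higher, none lower and none of the 8 at 0. The called genes were Apoltp, FASN1, Lsd-1, mdy, apolpp and Lpin, which act in lipid transport, synthesis and storage. All 13 muscle genes were also called higher, with a sum of 3073 to 3478 CPM in mated and 1536 to 1842 CPM in virgin abdomens. The same held for all 6 renal tubule genes, with 201 to 246 CPM in mated and 78.2 to 101 CPM in virgin abdomens. Of 18 midgut genes 16 were called higher, with 3363 to 7708 CPM in mated and 1235 to 2582 CPM in virgin abdomens, and no gene of these lists was at 0. Of 5 hemocyte genes tested, 1 was called higher, and the 6 counted summed to 56.2 to 68.6 CPM in mated and 27.8 to 46.3 CPM in virgin abdomens. Of 8 germline genes, 2 were called higher and 2 lower, against 29% of all genes higher and 25.2% lower. The part of tissue composition in the Bomanin differences was not tested.

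Scaling on those somatic genes moved every gene alike. The median of all genes between mated and virgin abdomens was 0.04 on the log2 scale with TMM, -0.60 when libraries were scaled on the 8 fat body genes and -0.96 when scaled on 19 muscle and tubule genes. With fat body scaling, which called 8.54% of all genes higher and 56.8% lower, BomS1, BomS2, BomS3, BomS5, BomT1 and BomT3 were called higher at 1.27, 0.68, 0.71, 0.70, 1.08 and 0.49, while BomS4 at 0.28 and BomT2 at 0.21 did not pass. With muscle and tubule scaling, BomS1 at 0.88 and BomT1 at 0.76 were called higher, BomS2, BomS3, BomS5 and BomT3 stood at 0.13 to 0.36 without passing, and BomS4 at -0.07 and BomT2 at -0.15 had the opposite sign without passing. Because of this common shift, values relative to the median of all genes stay nearly the same by construction. BomS1 stood at 1.81, 1.87 and 1.85 and BomS6 at 0.14, 0.16 and 0.16 under TMM, fat body and muscle and tubule scaling. The values thus place the Bomanins relative to other transcripts and to each other, not per cell.

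**Figure D2:**
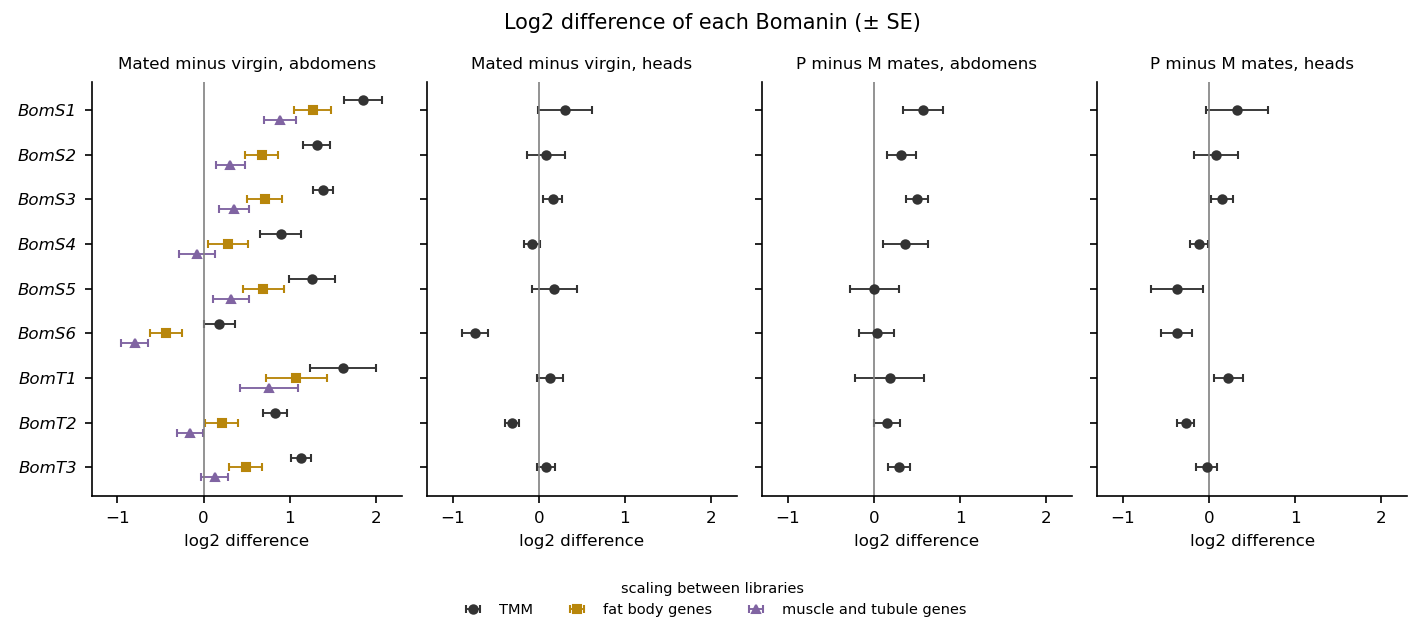
Log2 difference (x axis) of each Bomanin (y axis) with its SE, for mated minus virgin females in abdomens and heads and for females mated to polygamous-line (P) minus monogamous-line (M) males in both tissues. Circles are TMM scaling, squares scaling on fat body genes and triangles scaling on muscle and renal tubule genes. In abdomens BomS1 is highest and BomS6 lowest under each scaling, and BomS4, BomT2 and BomS6 fall below 0 under muscle and tubule scaling.

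In heads, no Bomanin was called between mated and virgin females by edgeR, where 0.863% of all genes were called higher and 1.35% lower. BomS6 and BomT2 were past an unadjusted p of 0.05, both with lower levels in mated heads, as were 15.7% of all genes in either direction. DESeq2 called these 2 members, with adjusted p-values of 3.25e-05 for BomS6 and 0.0237 for BomT2, and limma voom called none. Over all genes DESeq2 called 2.71% higher and 3.13% lower. The median member differed by 0.09 on the log2 scale and the median of all genes by -0.01. Mated and virgin heads overlapped for all 9 members, and of all genes 3.78% were higher and 4.82% lower without overlap.

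BomS6 had 146, 145 and 164 CPM in heads of P-mated females, 170, 196 and 224 CPM in heads of M-mated females and 323, 206 and 335 CPM in heads of virgins. The P-mated heads were the lowest and the virgin heads the highest, with virgin 2 inside the range of the M-mated heads. The log2 difference between mated and virgin heads was -0.74 ± 0.15 (SE), with an unadjusted p of 0.00119 and an adjusted p of 0.0522 by edgeR. Without virgin 2 the adjusted p was 0.00426, with scaling on fat body genes it was 0.0354, and without the 3 protease-rich libraries the log2 difference was -0.55 with an adjusted p of 0.547.

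BomT2 showed the same order in heads, with 99.9, 118 and 106 CPM in P-mated, 116, 131 and 144 CPM in M-mated and 141, 138 and 161 CPM in virgin females. M3 lay within the virgin range and the P-mated heads did not reach it. The log2 difference was -0.31 ± 0.08 (SE, edgeR adjusted p = 0.096), and -0.26 without the 3 protease-rich libraries. Against virgins, P-mated heads were lower without overlap for BomS6 and BomT2, at -0.93 ± 0.18 (edgeR adjusted p = 0.0551) and -0.44 ± 0.10 (edgeR adjusted p = 0.0606), as for 11.9% of all genes, while 11.8% were higher without overlap. No member was called by edgeR in that comparison, where 0.57% of all genes were called higher and 0.808% lower, nor after mating to M males, where 0.395% were called higher and 0.597% lower and BomS6 stood at -0.55 ± 0.18 (edgeR adjusted p = 0.29). At an unadjusted p below 0.05 there were 2 members after mating to P males and 1 after mating to M males, against 19.2% and 11.1% of all genes. DESeq2 called the same numbers of members, against 3.32% of all genes higher and 3.56% lower after mating to P males and 1.5% higher and 1.64% lower after mating to M males, and limma voom called none.

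For the other 7 members in heads, every pair of the P-mated, M-mated and virgin groups overlapped. BomS3, the most counted, had 342, 404 and 273 CPM in P-mated, 284, 320 and 315 CPM in M-mated and 271, 275 and 319 CPM in virgin heads. BomS1 had 47.5, 76.8 and 31.9 CPM in P-mated, 31.9, 37.3 and 55.5 CPM in M-mated and 31.1, 36.9 and 44.7 CPM in virgin heads. The highest head library of both genes was P2 and the P-mated heads spread widest.

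BomS2 had 82.1, 88.7 and 52.8 CPM in P-mated, 66.7, 60.3 and 84.4 CPM in M-mated and 68.5, 51.1 and 85.2 CPM in virgin heads. BomT3 had 184, 225 and 172 CPM in P-mated, 190, 180 and 220 CPM in M-mated and 173, 168 and 210 CPM in virgin heads. P2 was again the highest of all heads for both. BomS5 had 22.6, 29.8 and 17.3 CPM in P-mated, 24.8, 22.9 and 42.7 CPM in M-mated and 24.9, 19.1 and 26.1 CPM in virgin heads, and here M3 was the highest.

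BomS4 was even across heads, with 16.1, 16.7 and 17.0 CPM in P-mated, 16.3, 17.9 and 19.8 CPM in M-mated and 20.9, 15.7 and 17.9 CPM in virgin females. BomT1 had 4.25, 4.75 and 3.34 CPM in P-mated, 3.43, 3.84 and 3.27 CPM in M-mated and 3.73, 3.85 and 2.78 CPM in virgin heads. The log2 differences of these 7 members between mated and virgin heads ran from -0.07 for BomS4 to 0.31 for BomS1, with edgeR adjusted p-values of 0.533 to 0.884.

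**Figure D3:**
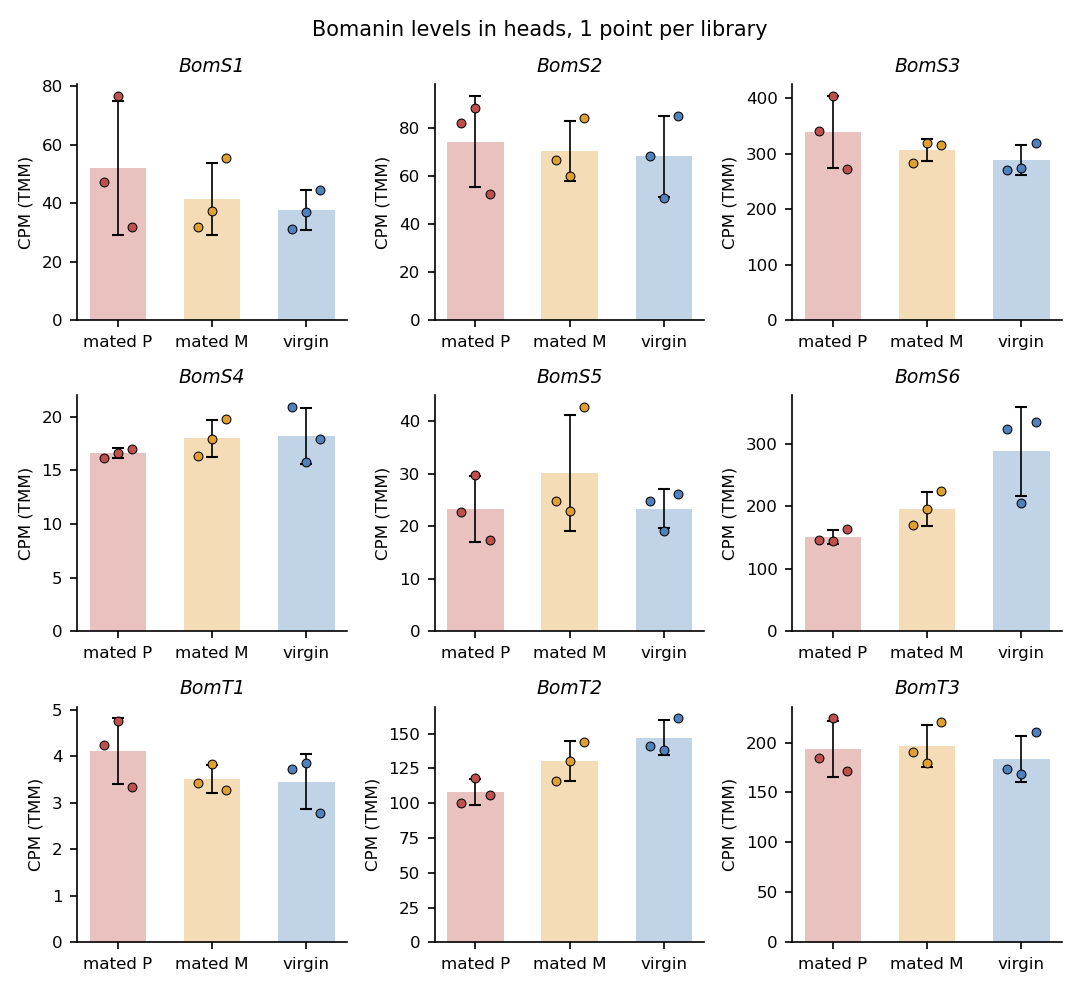
TMM-scaled CPM of the 9 Bomanins in heads, with 1 panel per gene, points for libraries, bars for the mean and error bars for the SD of 3 libraries, for mated P, mated M and virgin females. BomS6 and BomT2 are on average lowest after mating to polygamous-line males and highest in virgins, without passing the edgeR test. Mated and virgin heads overlap for all 9 members.

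The difference between tissues was itself tested. The model of all 18 libraries took the head and abdomen libraries of the same name as independent, although those of mated females share a male population. Over genes tested in both tissues, such pairs deviated from their group means with an r of -0.404 (virgin 2) to 0.26 (P3). The mating effect in abdomens exceeded that in heads for all 9 members, by 0.85 (BomS6) to 1.49 (BomS1) on the log2 scale, against 18.6% of all genes called higher and 18.6% lower in this comparison, but with scaling on muscle and tubule genes none was called and BomS4, BomS6 and BomT3 had negative values, where 1.6% of all genes were called higher and 58.7% lower. The interaction was also not called for BomS4, BomS5 and BomS6 with fat body scaling, nor for BomS1 (adjusted p = 0.0695) and BomS5 (adjusted p = 0.106) by limma voom. For BomS3 the difference was 1.16 ± 0.17 (SE, edgeR adjusted p = 0.000201). For BomS5 it was 1.01 ± 0.36 (SE, edgeR adjusted p = 0.0388) and was not called in 12 of the 18 fits that left out 1 library. For BomS6 it was 0.85 ± 0.24 (SE, edgeR adjusted p = 0.0144), without a call when virgin abdomen 3 was left out (adjusted p = 0.0525).

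All members were less abundant in abdomens than in heads. Among mated females, the abdomen-minus-head difference ran from -2.47 ± 0.24 for BomT1 to -3.68 ± 0.16 for BomS6 (log2, SE), with all 9 called lower by edgeR, against 44.1% of all genes lower and 46.6% higher. Among virgins it ran from -3.49 ± 0.22 for BomS4 to -4.53 ± 0.23 for BomS6, again with all 9 called lower, against 44.5% of all genes lower and 44.1% higher. The fat body genes had the same order of tissues, with 1877 to 2447 CPM in mated abdomens against 10620 to 13760 CPM in mated heads, and 1010 to 1480 CPM in virgin abdomens against 11150 to 11880 CPM in virgin heads.

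Per kilobase, BomT1 was the least abundant member on average in every group. BomS6 was the most abundant except in P-mated abdomens, where BomS3 averaged 87.6 ± 12.1 and BomS6 86.0 ± 16.7 CPM per kilobase (SD, n = 3), within their spread of each other. This order rests on the annotated exon lengths, 198 bp for BomS6 and 769 bp for BomS3. By CPM alone, BomS3 averaged 57.5 and BomS6 16.8 in mated abdomens, and 323 and 174 in mated heads. In virgin heads they averaged 289 and 288 CPM. Mated abdomens had 85.0 ± 11.7 CPM per kilobase of BomS6, 74.7 ± 16.7 of BomS3, 67.6 ± 8.23 of BomT2, 43.9 ± 6.14 of BomT3, 35.8 ± 5.94 of BomS2, 25.1 ± 7.68 of BomS1, 17.9 ± 2.58 of BomS5, 12.8 ± 2.92 of BomS4 and 2.098 ± 0.625 of BomT1 (SD, n = 6). BomS6, BomS3 and BomT2 lay within their spread of each other. Virgin abdomens had 74.8 ± 21.9 CPM per kilobase of BomS6, 38.0 ± 6.73 of BomT2, 28.1 ± 2.67 of BomS3, 19.9 ± 2.65 of BomT3, 14.2 ± 2.70 of BomS2, 7.34 ± 3.13 of BomS5, 6.74 ± 2.41 of BomS4, 6.71 ± 1.46 of BomS1 and 0.612 ± 0.358 of BomT1 (SD, n = 3). Here BomS5, BomS4 and BomS1 did not differ beyond their spread.

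In heads, mated females had 879 ± 156 CPM per kilobase of BomS6, 420 ± 60.9 of BomS3, 311 ± 42.5 of BomT2 and 297 ± 33.7 of BomT3 (SD, n = 6), followed by BomS2 at 198 ± 39.8, BomS1 at 130 ± 48.2, BomS5 at 122 ± 40.5, BomS4 at 61.6 ± 4.86 and BomT1 at 9.78 ± 1.51. BomT2 and BomT3 did not differ beyond their spread, nor did BomS1 and BomS5. Virgin heads had 1455 ± 361 CPM per kilobase of BomS6, 384 ± 33.0 of BomT2, 375 ± 34.7 of BomS3, 280 ± 35.0 of BomT3, 186 ± 46.5 of BomS2, 107 ± 17.1 of BomS5, 104 ± 18.9 of BomS1, 64.8 ± 9.29 of BomS4 and 8.86 ± 1.499 of BomT1 (SD, n = 3). BomT2 and BomS3 did not differ beyond their spread, nor did BomS5 and BomS1. BomS3 stood above BomT2 per kilobase in all 6 mated heads and in none of the 3 virgin heads, and in abdomens in 3 of 6 mated and 1 of 3 virgin libraries. BomS3 has 2 annotated transcripts, and its level per kilobase refers to all their exons.

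The make-up of the Bomanin pool can be read without any scaling between libraries. BomS6 made up 20.8%, 17.9% and 26.3% of the summed per-kilobase level of the 9 members in P-mated abdomens, 25.3%, 25.8% and 24.7% in M-mated abdomens and 42.0%, 35.7% and 35.1% in virgin abdomens. In heads its share was 32.7%, 28.4% and 39.4% in P-mated, 37.8%, 40.1% and 38.9% in M-mated and 52.9%, 43.1% and 49.8% in virgin females. The BomS6 shares of mated and virgin females did not overlap in either tissue, although BomS6 passed the edgeR test on its own level in neither. The BomT3 share was also apart in both tissues, and higher in mated females. It was 10.9% to 12.9% in mated and 9.68% to 10.8% in virgin abdomens, and 11.1% to 13.3% in mated and 8.53% to 10.6% in virgin heads. Shares of BomS1 and BomS2 were apart in abdomens only and that of BomS5 in heads only, all higher in mated females. The shares of a library add to a whole, so a smaller share of BomS6 leaves larger shares for the rest. BomS6 was singled out after its values were seen, and no test is given for its share.

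Ratios of counts between pairs of members do not depend on the rest of the pool. The ratio of BomS6 to BomS3 was 0.306 ± 0.0753 in mated and 0.695 ± 0.235 in virgin abdomens, and 0.551 ± 0.132 in mated and 0.996 ± 0.227 in virgin heads (SD, n = 6 and 3). The ratio of BomS6 to its neighbour BomS5, which lies 110 bp away on the other strand, was 4.47 ± 1.31 in mated and 9.80 ± 2.36 in virgin abdomens, and 6.91 ± 1.82 in mated and 12.2 ± 1.25 in virgin heads. For both ratios the ranges of mated and virgin females were apart in both tissues. Both hold BomS6, which was singled out after its values were seen, so they are not separate from its share. Only some pairs of members were examined, and how often ranges of other gene pairs were apart was not examined. The ratio of BomS1 to BomS3 was 0.158 ± 0.0308 in mated and 0.114 ± 0.0321 in virgin abdomens, and 0.142 ± 0.0337 in mated and 0.130 ± 0.0133 in virgin heads, with overlap in both. The ratio of BomT2 to BomT3 was 0.612 ± 0.0734 in mated and 0.802 ± 0.0295 in virgin heads, without overlap, and 0.907 ± 0.125 in mated and 1.11 ± 0.171 in virgin abdomens, with overlap.

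**Figure D4:**
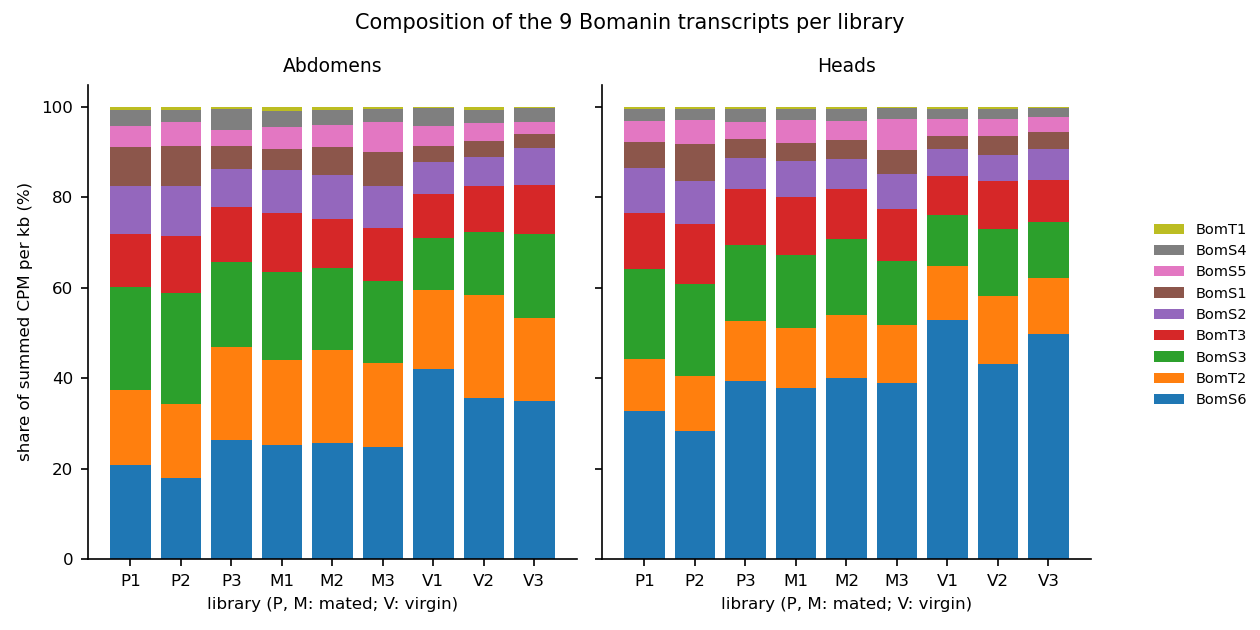
Share of each Bomanin in the summed CPM per kilobase of the 9 members (y axis, percent) in each library (x axis), for abdomens and heads. The BomS6 share at the foot of the bars was 17.9% to 26.3% in mated and 35.1% to 42.0% in virgin abdomens, and 28.4% to 40.1% in mated and 43.1% to 52.9% in virgin heads.

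The members' log2 differences between mated and virgin females ran in much the same order in both tissues. BomS1 was first and BomS6 last in abdomens and in heads, BomT2 was 8th and BomS4 7th in both, and over the 9 genes Pearson's r was 0.941 and Spearman's rho 0.85, as a description of genes that mostly share a cluster and were counted in the same libraries. The span from the lowest to the highest member was 1.67 in abdomens and 1.05 in heads. Position in the cluster did not order the differences, as BomS1 and BomS4 are 188 bp apart and differed from virgins by 1.86 and 0.90 in abdomens, and BomS5 and BomS6 by 1.26 and 0.18.

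**Figure D5:**
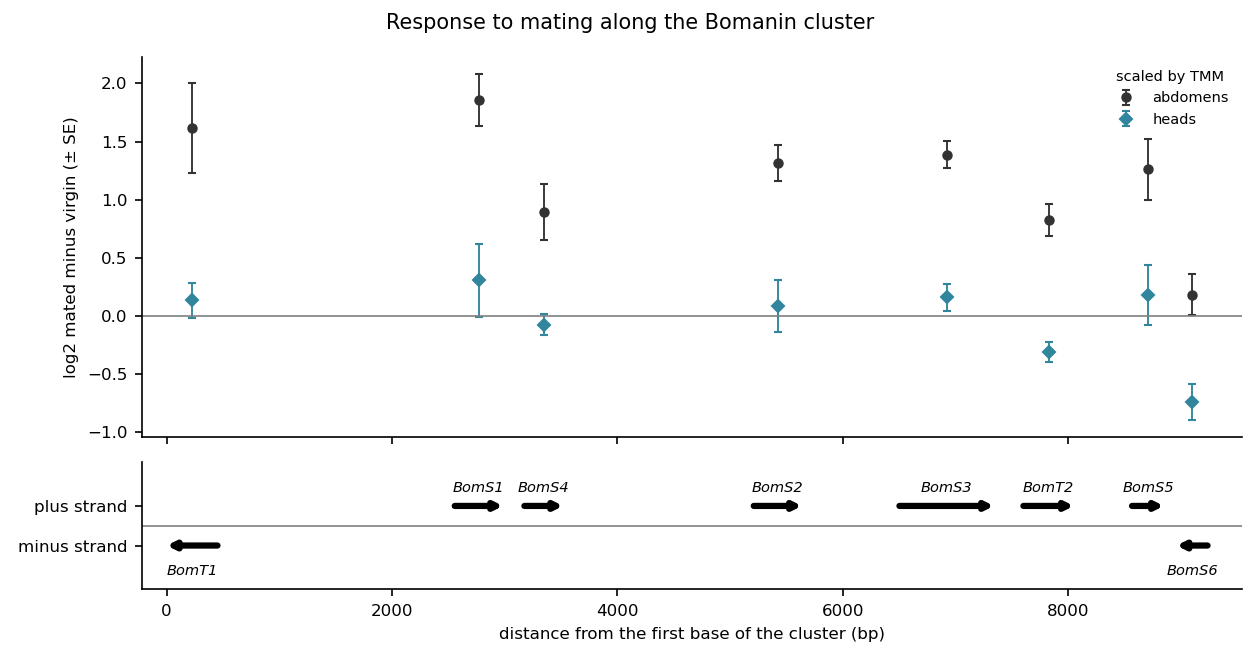
Upper panel, log2 difference between mated and virgin females with its SE (y axis, TMM scaling) for the 8 Bomanins of the cluster in abdomens (circles) and heads (diamonds), at the middle of each gene. Lower panel, the genes to scale by strand, with distance in bp from the first base of the cluster on the x axis. BomS6, at the right end, has the lowest value in both tissues, and abdomen values of BomS4, BomT2 and BomS6 are negative with muscle and tubule scaling.

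Whether the regime of the males mattered was the question of the study. Between females mated to P and to M males, no Bomanin was called in either tissue by edgeR, DESeq2 or limma voom. In abdomens 0% of all 10350 genes were called, and 1.79% were past an unadjusted p of 0.05. The difference between P-mated and M-mated abdomens was positive for all 9 members, from 0.00 for BomS5 to 0.57 for BomS1, and for 52.4% of all genes. The median was 0.29 against 0.01 for all genes, and the signs of BomS5, BomS6 and BomT1 turned when single libraries were left out. The members' levels went together across abdomen libraries (median r of 0.854), so their signs do not count as separate observations. BomS3 differed by 0.50 ± 0.12 (SE, edgeR unadjusted p = 0.00225), BomS1 by 0.57 ± 0.23 (unadjusted p = 0.0326) and BomT3 by 0.29 ± 0.13 (unadjusted p = 0.0439), each with an adjusted p of 1.00. BomS3 and BomT3 were the 2 members with all P-mated libraries above all M-mated ones, as for 2.9% of all genes, and 2.61% were lower without overlap.

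BomS3 kept an unadjusted p of 0.000429 to 0.0155 in the 9 fits that left out 1 library, with log2 differences of 0.40 to 0.60. BomS1 had unadjusted p-values of 0.00356 to 0.12 and BomT3 of 0.00909 to 0.145 in the same fits, so neither held without every library. DESeq2 gave BomS3 an adjusted p of 0.239, and called 4 of all genes higher and 6 lower.

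In heads the P-minus-M difference was positive for 4 members and negative for 5, from -0.38 ± 0.18 for BomS6 to 0.32 ± 0.36 for BomS1. It was positive for 49% of all genes. Of all 10886 genes 0% were called, and 7.94% were past an unadjusted p of 0.05. BomT2, at -0.27 ± 0.10, was the member past that threshold (edgeR unadjusted p = 0.0202, adjusted p = 0.614). BomS6 was the member with all P-mated heads below all M-mated heads, as for 7.01% of all genes, and 8.18% were higher without overlap. Of the 3 M-mated head libraries 2 were protease-rich and none of the P-mated ones, so that signal moved with the regime in heads, and its part in these values was not tested. Without the 3 protease-rich libraries, M3 was the only M-mated head and was assumed to vary like the other groups. The P-minus-M difference was then -0.42 ± 0.13 for BomT2 (edgeR unadjusted p = 0.0121, adjusted p = 0.614), -0.56 ± 0.26 for BomS6 (unadjusted p = 0.0733) and -0.88 ± 0.32 for BomS5 (unadjusted p = 0.0410), and no member was called. The regime difference in abdomens minus that in heads was -0.09 to 0.43, called by edgeR for no member and for 0% of all genes, with no member at an unadjusted p below 0.05.

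The members' levels were more alike across abdomen libraries than across heads. Over the 9 abdomen libraries, which include the difference between mated and virgin females, Pearson's r of log2 CPM for the 36 pairs of members had a median of 0.854 and ran from 0.291, for BomS3 with BomS6, to 0.975. Over the 9 heads the median was 0.251, from -0.632, for BomS6 with BomT1, to 0.909, for BomS1 with BomS3. In heads BomS6 and BomT2 went together with an r of 0.87, and BomS1, BomS2, BomS3 and BomT3 with an r of 0.73 to 0.91. These points share libraries and depth and are given as a description.

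The genes most like the members' mean profile over the 9 abdomen libraries, among 8277 genes, were CG14687 (r = 0.989), Rpp21 (0.987), CG9372 (0.986), CG44014 (0.986) and Idgf2 (0.984). Over the 9 heads, among 8919 genes, they were BomBc3 (0.926), CG12096 (0.917), GNBP-like3 (0.909), CG1105 (0.899) and CG7420 (0.864). BomBc3 is the bicipital Bomanin next to BomT3 on 3R.

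Of 12 other listed effectors of the Toll pathway 9 were tested in abdomens, where 7 were called higher with mating and none lower, with a median of 1.16 on the log2 scale. Among all genes 29% were called higher and 25.2% lower. Bombardier (Bbd), which is required for short Bomanins to accumulate in the haemolymph, differed by 0.73 ± 0.10, BomBc1 by 2.85 ± 0.45, BomBc2 by 0.71 ± 0.13 and BomBc3 by 1.72 ± 0.28. BomBc1 was barely detected, at 0.021 to 0.054 CPM in virgin and 0.254 to 0.987 CPM in mated abdomens. The antifungal Daisho peptides Dso1 and Dso2 differed by 1.25 ± 0.25 and 0.83 ± 0.14 (all edgeR adjusted p at most 0.00312). With muscle and tubule scaling 1 of the 9 was called higher and their median was -0.08. In heads 0 of 10 were called, with a median of -0.21, and Dso1 and Bbd were nearest the threshold at -0.45 ± 0.14 and -0.26 ± 0.09 (edgeR adjusted p = 0.164 and 0.171).

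The signalling genes upstream of the Bomanins went both ways in abdomens, as genes at large did. Of 21 tested, 11 were called higher and 5 lower, against 29% of all genes higher and 25.2% lower. Their median was 0.64. With muscle and tubule scaling 0 were higher and 12 lower, against 3.3% of all genes higher and 69.1% lower. The proteases modSP and Hayan, which act in the cascade outside the cell, were higher by 0.81 ± 0.13 and 1.10 ± 0.18, as was the serpin nec, which restrains that cascade, by 1.11 ± 0.20. The ligand spz was lower by -0.61 ± 0.10, and inside the cell the adaptor tub and the inhibitor cact were lower by -0.50 ± 0.08 and -0.46 ± 0.07 (edgeR adjusted p at most 0.00173 for all 6). Of the NF-kappaB factors, Dif was higher by 0.64 ± 0.13 and dorsal lower by -0.31 ± 0.07 (edgeR adjusted p = 0.0025 and 0.0050). In heads the protease SPE, which processes spz, was called lower at -0.43 ± 0.09 (edgeR adjusted p = 0.0431), 1 of 20 tested, against 1.35% of all genes. That fit includes the protease-rich head libraries.

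Of 10 effectors of the other main immune pathway, Imd, tested in abdomens, 6 were called higher and none lower, with a median of 2.14. They were Listericin at 4.66 ± 0.21, AttA at 4.51 ± 0.37, AttB at 4.69 ± 0.61, CecB at 2.66 ± 0.60, Def at 2.09 ± 0.25 and CecC at 1.97 ± 0.33, all antibacterial peptides (edgeR adjusted p at most 0.00464). Virgin levels were low, as all 14 listed effectors summed to 4.49 to 11.43 CPM in virgin and 38.15 to 82.75 CPM in mated abdomens. Scaling on fat body genes and on muscle and tubule genes also gave 6 calls each, with medians of 1.52 and 1.23. Of 14 Imd signalling genes, 6 were called higher and 5 lower, with a median of 0.03. Of all genes tested with TMM scaling in abdomens, 29% were called higher and 25.2% lower. In heads no Imd effector was called and their differences had both signs, where 0.863% of all genes were called higher and 1.35% lower. Listericin was nearest the threshold there, at 0.35 ± 0.10 (edgeR adjusted p = 0.109).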

How the data were processed

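Gene counts were deposited by the authors as whole numbers of reads, not normalised, for 36 samples that are 2 sequencing runs of each of 18 libraries. Per the labels' protocols, libraries were stranded total RNA. Per the submitters' processing notes, Trimmomatic 0.33, TopHat2 2.1.0, HTSeq 0.6.1 and the BDGP6 assembly were used. How strand and reads shared by genes were handled is not stated in these sources. The chi-square per degree of freedom between both runs was 1.81 to 3.32, against 38.7 to 227 between libraries of a group, so runs were summed and n counts libraries. Gene positions came from Ensembl annotation of BDGP6, which held 17387 of the 17552 identifiers.

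The test was the quasi-likelihood F test of edgeR 4.0.16 in R 4.3.3, with TMM scaling, the package's filter on low counts, robust dispersions and a prior count of 2, and with Benjamini-Hochberg adjustment over all genes tested in a comparison (threshold 0.05). Each tissue had 1 model with 3 groups (6 residual degrees of freedom, biological coefficient of variation 0.172 in abdomens and 0.272 in heads), and tissues were compared in a model of all 18 libraries. Standard errors are |log2 change| / √F. The code was tested on simulated counts.

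Alternatives were DESeq2 1.42.0, limma 3.58.1 voom, median-of-ratios factors, scaling on 19 muscle and renal tubule genes or 8 fat body genes, no filter, each run alone, a replicate block and leaving out each library. Fat body scaling and leaving out the 3 protease-rich head libraries were chosen after seeing the data. The members and gene lists were chosen with earlier results of these data known. All members are named. From each list, up to 6 called genes with the smallest p are named, or up to 2 where none was called. Dif and dorsal are named in addition. The 5 genes most like the members had mean log2 CPM no lower than 1 and the highest Pearson r with the mean standardised member profile. BaraA2, vas and Nplp2 were listed and not analysed here.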

Additional observations from a re-analysis of the deposited data

Results flagged for a closer look

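For each of the 9 Bomanins, the difference between mated and virgin females was itself different between abdomens and heads, by edgeR's interaction test with TMM scaling. The log2 mating effect in abdomens minus that in heads was 1.49 for BomS1, 1.16 for BomS2, 1.16 for BomS3, 0.901 for BomS4, 1.01 for BomS5, 0.851 for BomS6, 1.41 for BomT1, 1.07 for BomT2 and 0.98 for BomT3. For BomS6 the separate differences were 0.18 in abdomens and -0.74 in heads, neither called, and for the other members they were 0.83 to 1.86 in abdomens and -0.31 to 0.31 in heads. None of the 9 was called with scaling on muscle and tubule genes, where the median of all genes moved by -0.99. In the 18 groups of mated libraries examined for a sample far from the others, by gene and tissue, none was found, where chance alone would give about 1 in 20.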

How the results depend on the processing

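The scaling between libraries and, in heads, single libraries and the choice of tool bear most on the counts of Bomanins called. Between mated and virgin abdomens, 8 members were called higher with TMM and 2 with muscle and tubule scaling, which also called 1 lower, as did fat body scaling. Against virgins, M-mated abdomens had 1 member higher and 1 lower with muscle and tubule scaling and 3 higher and 1 lower with fat body scaling, and P-mated abdomens had 4 higher and 1 lower with muscle and tubule scaling. The interaction of mating with tissue was called for 0 members with muscle and tubule scaling. In heads, DESeq2 called 2 members lower in mated females, 2 after mating to P males and 1 after mating to M males, fat body scaling 1 in mated females and the fit with no filter 1 after mating to P males. Leaving out 1 library gave 8 to 9 members higher in mated abdomens, 6 to 8 in M-mated and 8 in P-mated abdomens, and 0 to 1 lower in mated, P-mated and M-mated heads, the 1 being without virgin 2. Signs turned with muscle and tubule scaling for BomS4 (-0.0747), BomS6 (-0.80) and BomT2 (-0.15) in abdomens and for BomS4 (-0.11), BomS6 (-0.17) and BomT3 (-0.0857) in the interaction, and with fat body scaling for BomS6 (-0.44). In heads BomS2 ranged from -0.0856 (without virgin 2) to 0.276 when 1 library was left out, and BomS4 turned to 0.0400 without virgin 1 and 0.11 without the 3 protease-rich libraries. A shift of all genes by the scaling genes is built into the somatic scalings, and the other causes were not tested. Of the remaining values, 494 counts of members called equalled the main count or stayed close to it. Among log2 changes, 1014 kept their direction and their side of the threshold, 33 no longer passed and 5 newly passed.

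Not every pair of samples with the same number in the titles deviated together (r of -0.425 to 0.034 in abdomens and -0.505 to 0.686 in heads), so the numbers were not taken to pair the samples. The replicate block gave 8 members higher in mated abdomens, 7 in M-mated and 8 in P-mated abdomens, 0 in heads and 0 between regimes, and changed none of these counts. Over all genes in heads, edgeR called 94 higher and 147 lower with mating, 44 and 80 with the block, 295 and 341 by DESeq2, and 0 and 0 without the 3 protease-rich libraries. BomT1, at 6 to 62 counts in an abdomen library, is the member limited most by depth.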
